A study of Mesocricetus auratus with 36 samples.

Results

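The collagen, laminin and integrin genes form the fibrous and sheet-like extracellular matrix and the receptors by which cells hold on to it. They were chosen by gene name: collagen chains (Col followed by a number, a and a number, leaving out 1 gene, Col23a1), laminin chains (Lama, Lamb, Lamc) and integrin subunits (Itga and Itgb with a single digit, Itgav and Itgam). Of the 71 genes so named, 63 had a mean of at least 0.5 CPM (counts per 1e6 counts of the library) over all 36 libraries and are described here, out of 32340 genes in the tables. They are 38 collagen, 9 laminin and 16 integrin genes, and each matched a protein-coding gene in the RefSeq table. Just inside the threshold stood Col24a1 at 0.604 and Col3a1 at 0.625 CPM, and just outside it Itga8 at 0.452 and Itgb3 at 0.442 CPM. The other genes left out by level were Col26a1, Itgb6, Col28a1, Col10a1, Lamb3 and Col13a1.

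The libraries come from male golden hamsters. Laser capture took the ependymal layer of the hypothalamus, a tissue rich in tanycytes, which are elongated glia at the floor of the third ventricle. The 6 groups hold 6 libraries each, and the protocol gives 6 brains per group. Long photoperiod animals were kept with 14 h of light per day at 22 °C and are labelled 8 months old; the protocol has long photoperiod sampled at both ends of the experiment. All other animals were moved to 10 h of light at 8 °C. They were sampled after 4 weeks at 4 months of age (pre-hibernation), after 8 to 12 weeks while still without torpor bouts (late pre-hibernation), or after 3 cycles of torpor and arousal. The cycling animals were taken 23 h into a warm interval (interbout euthermia) or 13 h into a torpor bout, and these groups and the late pre-hibernation group were 6 months old. Refractory animals gave up hibernation at about 20 weeks; sampling followed 2 weeks or more after the final bout, at 8 months of age, and the labels describe these animals as reproductive. Day length, temperature and, for all groups except the refractory one, age change together against long photoperiod and cannot be told apart. All 5 comparisons with long photoperiod share its 6 libraries, so they are not independent of each other.

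Collagens are trimers of chains wound around each other. Fibrillar types build fibres, type IV builds the network of the basement membrane, and smaller types such as VI and IX link or coat other fibres. Laminins are heterotrimers of an alpha, a beta and a gamma chain that form the other sheet of the basement membrane. Integrins pair an alpha with a beta subunit and tie these proteins to the cytoskeleton. In the brain such matrix lies mainly around vessels, at the meninges and under the endfeet of astrocytes and tanycytes, and radial glia use laminin-binding integrins at the pial surface.

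Libraries held 5.16 to 28.54 M counts (median 22.44 M, with M for 1e6). In 33 libraries at most 0.826% of the counts lay on ribosomal RNA genes. The other 3 were refractory 4 (41.8%), pre-hibernation 5 (9.28%) and interbout euthermia 6 (7.21%), and refractory 4 was also the smallest. Without refractory 4, 57 of the 71 names reached the threshold; Itga2, Col19a1, Col6a6, Col6a5, Col3a1 and Col24a1 reached it only through that library. Of the 57, 37 had their highest level of all 36 libraries in refractory 4, as did 29% of the 17926 genes tested. Over all tested genes this share depended on level. It was 62.8% for genes with a mean below 1 CPM in the other 35 libraries, and 12.9% at 10 CPM or more. Results are therefore given with and without it.

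Of the 63 genes, 60 passed the filter on low counts and were tested, while Col19a1, Col6a6 and Col6a5 were not. The test was edgeR's quasi-likelihood test over all genes, and a gene counted as changed at a Benjamini-Hochberg adjusted p below 0.05. Of the 60, 16 differed among the 6 groups, where 14.6% of all genes did. They were Itga7, Col6a2, Col5a3, Col9a3, Col24a1, Col11a2, Col9a1, Lama2, Itga3, Col16a1, Col8a2, Col1a1, Col14a1, Col3a1, Col4a3 and Lamb2. Of these, Col24a1 and Col3a1 are in the set only through refractory 4, so their place among the 16 follows from how the genes were chosen. Without refractory 4 the number was 13 against a background of 17.6%. Lama2, Col24a1, Col14a1, Col3a1, Col4a3, Col1a1 and Lamb2 then no longer passed, and Col6a3, Col4a5, Col27a1 and Col6a1 did. Other single libraries also mattered for Col1a1 (refractory 2 or 3), Col3a1 (torpor 5) and the borderline Col4a3, which was lost in 26 of 36 fits without a library. The summed level of all 63 genes spanned 974 to 1986 CPM, with means of 1259 ± 65.9 in long photoperiod, 1317 ± 129 in torpor and 1307 ± 348 in the refractory group (SD, n = 6).

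**Figure D1:**
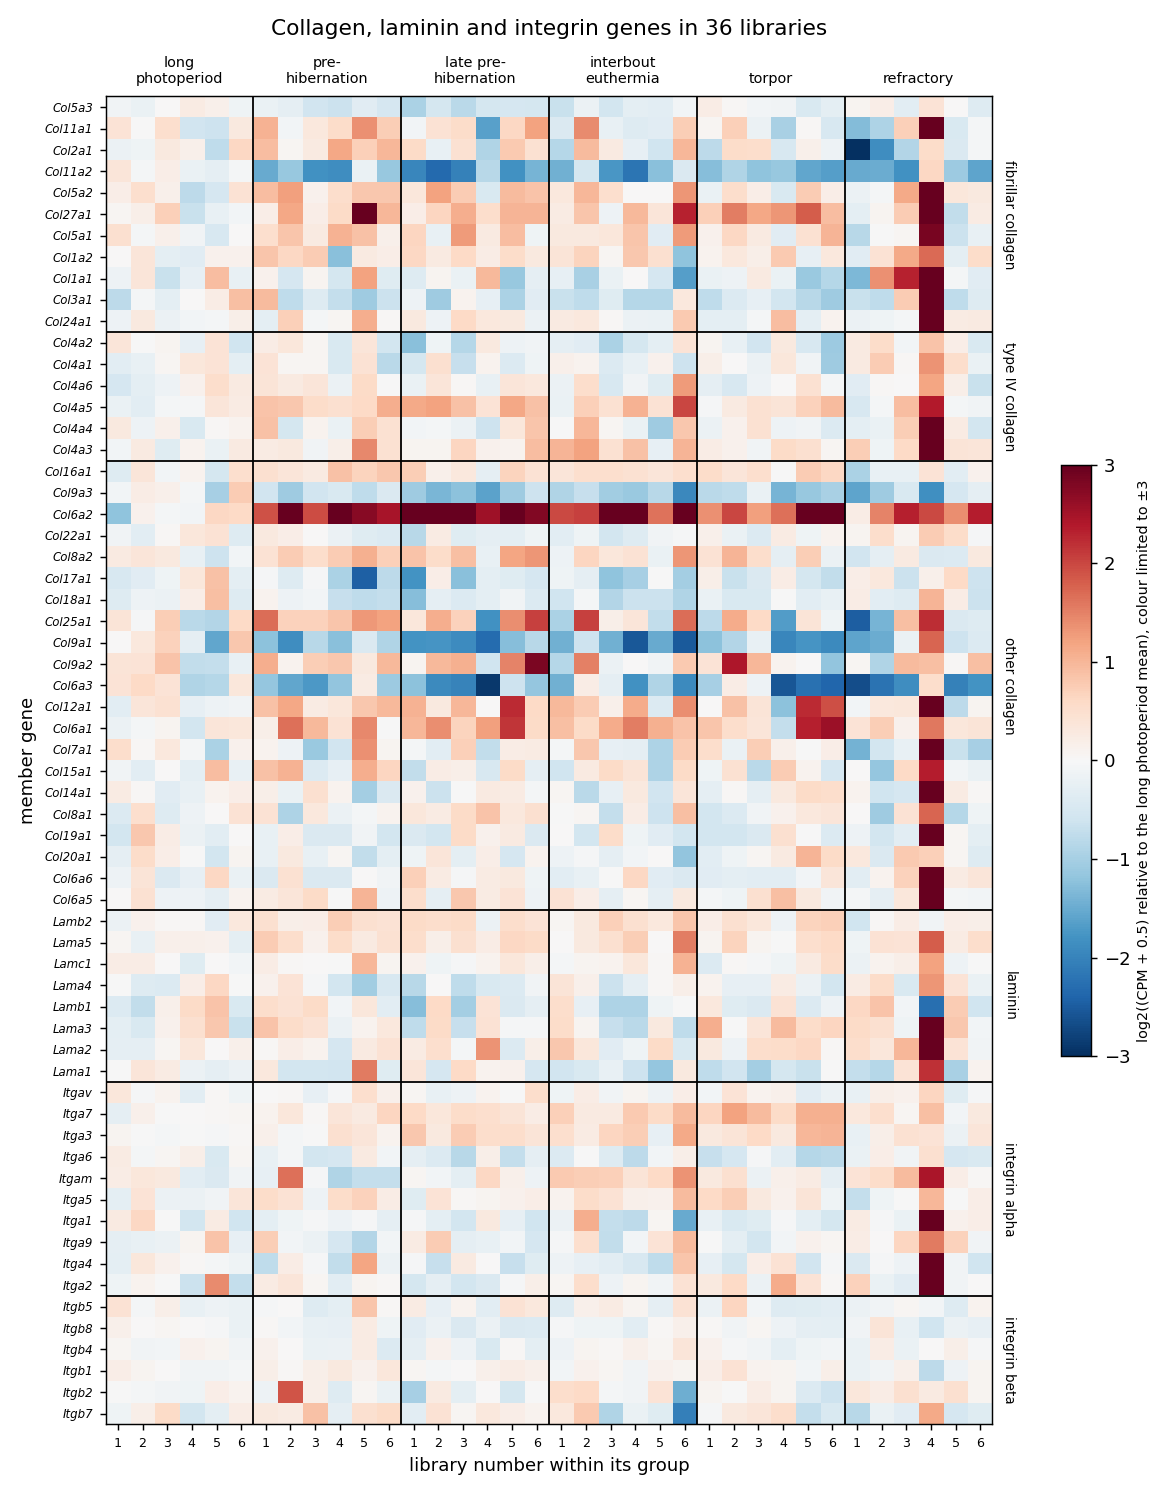
Level of 62 of the genes (rows, by class and mean level) in each of the 36 libraries (columns, by group), as log2 of CPM + 0.5 relative to the mean of the 6 long photoperiod libraries, with colour limited to ±3. Col6a2 was above the long photoperiod mean in every short photoperiod library, and the column of refractory 4 is high in most rows.

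Per kilobase of exon, 4 of the 6 integrin beta subunits (Itgb5, Itgb1, Itgb4 and Itgb8) and a few collagen and laminin chains were among the most abundant of the 63 genes in this tissue. On this scale of length-scaled level, averaged over 36 libraries, Itgb5 came first at 40.3 CPM per kb (30.2 to 70.7), followed by Lamb2 at 31.4 (16.8 to 45.1). Itgb5 is the partner of the alpha v subunit, and Lamb2 is the beta chain of the laminins of vessels and glial limiting membranes. Next stood Col9a3 at 26.3 (10.9 to 71.0) and Itgb1 at 25.9 (14.4 to 33.8), and the ranges of all 4 genes overlap. Col16a1, a fibril-associated collagen, followed at 20.2 CPM per kb. The top alpha subunits were Itgav at 6.07 and Itga7 at 5.08, and the next laminin was Lama5 at 3.32. The leading fibrillar chains were Col5a3 at 7.89 and Col2a1 at 1.37, and the leading type IV chains were Col4a2 at 1.63 and Col4a1 at 1.38. The type I and III chains that dominate connective tissue were low, with Col1a2 at 0.322, Col1a1 at 0.265 and Col3a1 at 0.173 CPM per kb.

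Among the changes against long photoperiod that passed the test with all libraries, those of Col6a2, a collagen VI chain, had the largest fold. Collagen VI makes beaded filaments next to basement membranes from the products of Col6a1, Col6a2 and a longer chain such as that of Col6a3. Col6a2 lay at 2.17, 5.77 and 8.92 normalised CPM (lowest, median and highest of 6 libraries, as in all such triplets below) in long photoperiod. It lay at 22.6, 36.9 and 56.5 in pre-hibernation, 35.1, 75.6 and 103 in late pre-hibernation, 18.4, 36.7 and 139 in interbout euthermia, and 13.8, 21.4 and 135 in torpor. Every library of these 4 groups was above every long photoperiod library. In torpor 4 libraries lay between 13.8 and 24.0 CPM, while torpor 5 and torpor 6 stood at 111 and 135.

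Col6a2 was the single member of the 60 that rose by this test in pre-hibernation (2.29% of all genes were called there, and 1.61% were higher), with a log2 fold change of 2.65 ± 0.56 (SE), or 6.29-fold (edgeR adjusted p = 0.00568). In late pre-hibernation it was 11.3-fold higher than in long photoperiod (log2 3.49 ± 0.58, edgeR adjusted p = 0.000212). The change was 8.69-fold in interbout euthermia (adjusted p = 0.00193) and 8.64-fold in torpor (adjusted p = 0.000372), both by edgeR. None of these calls was lost when any single library was left out, and 1 further gene was called in pre-hibernation without long photoperiod 5, pre-hibernation 1 or pre-hibernation 5 (1.86%, 2.1% and 2.06% of all genes). With long photoperiod libraries 1 to 3 or 4 to 6 as the only controls, the pre-hibernation call was lost (adjusted p = 0.0705 and 0.191), and with 4 to 6 that of interbout euthermia was lost too (0.12). In refractory animals Col6a2 lay at 6.62, 20.1 and 30.6 CPM, where 5 of 6 libraries were above every long photoperiod library but the change was not called (log2 1.74 ± 0.56, edgeR adjusted p = 0.127). Of 11 endothelial markers, 2 (Kdr and Esam) rose in the same 4 groups and 1 (Slco1c1) fell in late pre-hibernation, while the median log2 change of the 11 was 0.01, 0.09, -0.10 and 0.18 from pre-hibernation to torpor. Their summed level ran from 235 to 542 CPM in long photoperiod, 220 to 302 in pre-hibernation, 238 to 297 in late pre-hibernation, 227 to 335 in interbout euthermia and 227 to 337 in torpor, and none was at 0 in any library. Their part in the Col6a2 result was not tested. Between neighbouring short photoperiod stages Col6a2 did not pass: log2 0.84 (95% interval -0.18 to 1.86) from pre-hibernation to late pre-hibernation, -0.37 (-1.39 to 0.64) to interbout euthermia, and -0.01 (-1.03 to 1.01) to torpor.

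Col6a1 was a low-level gene, at 0.555, 1.07 and 1.49 CPM in long photoperiod and 0.438, 2.01 and 8.73 in torpor. Torpor 5 and torpor 6, the high libraries for Col6a2, were also the high ones here at 7.25 and 8.73 CPM, and the groups overlap. It rose 3.35-fold in torpor (log2 1.74, edgeR adjusted p = 0.0139), and this call was lost without torpor 5 or without torpor 6 (adjusted p up to 0.093). The late pre-hibernation range, 1.81 to 6.38 CPM, lay wholly above long photoperiod. In edgeR that comparison missed the threshold with refractory 4 (log2 1.58, adjusted p = 0.0515) and passed without it (adjusted p = 0.0291).

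Col6a3 went the other way. It lay at 6.15, 15.6 and 18.2 CPM in long photoperiod and at 1.15, 3.80 and 7.51 in late pre-hibernation, where 5 of 6 libraries were below every long photoperiod library. In edgeR that fall was called without refractory 4 (log2 -1.69, adjusted p = 0.0345) and not with it (-1.70 and 0.0943). In the refractory group 5 libraries lay between 1.47 and 3.09 CPM and refractory 4 stood at 17.5. Without refractory 4 the refractory group was lower than long photoperiod by log2 -2.40 (edgeR adjusted p = 0.0485). In the other 3 groups at least 1 library overlapped long photoperiod, and no call was made. Lum, a proteoglycan of fibroblasts, also fell in late pre-hibernation (log2 -3.09, edgeR adjusted p = 0.0208), and its part in the Col6a3 result was not tested.

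The balance between the collagen VI chains was described by the ratio of their length-scaled levels in each library, and no test was made on these ratios. Col6a2 to Col6a3 had a median of 0.923 in long photoperiod (0.274 to 2.86) and of 45 in late pre-hibernation (16.6 to 61.5). The medians were 13.6 in pre-hibernation (5.70 to 30.2), 10.9 in interbout euthermia (3.62 to 100.2), 14.7 in torpor (2.64 to 146) and 13.9 in refractory animals (2.73 to 20.9). Of these groups, torpor and refractory overlapped long photoperiod, each through a single library. These were torpor 3 at 2.64 and refractory 4 at 2.73. The other torpor libraries lay at 3.48 or above, and the other refractory libraries at 9.12 to 20.9. Col6a2 to Col6a1 had a median of 4.39 in long photoperiod (1.83 to 6.93) and 16.2 in late pre-hibernation (8.23 to 28.1), which did not overlap. The other groups overlapped long photoperiod, with medians of 11.2 in pre-hibernation (6.69 to 26), 11.1 in interbout euthermia (4.92 to 43.8), 10.6 in torpor (4.93 to 31.3) and 6.88 in refractory animals (3.13 to 18.4). The other collagen VI genes, Col6a5 and Col6a6, stayed at or below 0.719 CPM in every library except refractory 4, where each stood at 29.1.

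**Figure D2:**
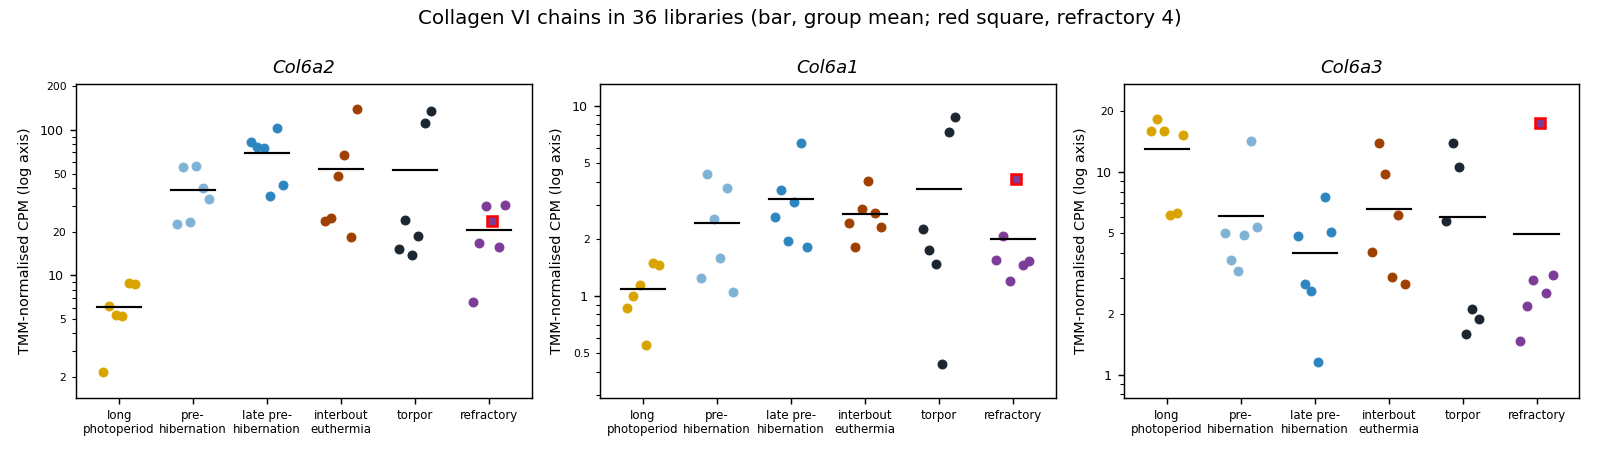
TMM-normalised CPM (log axis) of Col6a2, Col6a1 and Col6a3 in each of 36 libraries by group; bars are arithmetic group means and the red-edged square is refractory 4. Col6a2 in long photoperiod (2.17 to 8.92) lies below every pre-hibernation, late pre-hibernation, interbout and torpor library, while Col6a3 lies at 6.15 to 18.2 there and at 1.15 to 7.51 in late pre-hibernation.

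Col9a3, Col9a1 and Col11a2 fell in late pre-hibernation and torpor. Collagen IX coats fibrils of types II and XI, and Col11a2 encodes a chain of collagen XI. Col9a3 lay at 61.6, 128 and 209 CPM in long photoperiod, 58.7, 82.8 and 91.3 in pre-hibernation, and 40.2, 55.4 and 79.7 in late pre-hibernation. It then stood at 32.2, 62.7 and 76.2 in interbout euthermia, 46.4, 66.8 and 107 in torpor, and 34.3, 73.1 and 102 in the refractory group. The groups overlap through long photoperiod 5, which held 61.6 CPM while its other 5 libraries held at least 117. In late pre-hibernation 6 of the 60 genes were called, 2 higher and 4 lower (3.58% of all genes, 2.25% higher and 1.33% lower), and Col9a3 was 2.34-fold lower (log2 -1.23 ± 0.24, edgeR adjusted p = 0.00157). It was also lower in interbout euthermia (log2 -1.13, adjusted p = 0.00845) and torpor (log2 -0.92, adjusted p = 0.0117) in the same edgeR fit, and none of these calls rested on a single library. In refractory animals the value was log2 -0.92 (edgeR adjusted p = 0.0548), and without refractory 4 it was -0.78 (adjusted p = 0.269).

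Col9a1 was a lower-level chain of the same collagen, at 3.96, 14.2 and 22.2 CPM in long photoperiod. It lay at 2.14, 3.30 and 6.81 in late pre-hibernation, 1.74, 4.18 and 8.03 in interbout euthermia, and 2.85, 4.16 and 10.7 in torpor. Long photoperiod 5 was again low at 3.96 CPM and overlapped each of these groups. The falls were log2 -1.86 (edgeR adjusted p = 0.0152), -1.80 (0.0347) and -1.44 (0.0443). The last 2 calls were fragile, since 9 of the 12 leave-one-out fits lost each of them, with adjusted p up to 0.0984 without interbout euthermia 4 and 0.104 without torpor 6. Those 9 always included long photoperiod 1, 2, 3 and 6. Interbout euthermia 2 and torpor 3, with long photoperiod 4 and 5, were the libraries whose removal kept the calls. The remaining chain, Col9a2, was not called in any comparison, at 2.30, 4.59 and 7.99 CPM in long photoperiod and 2.61, 9.01 and 32.8 in late pre-hibernation.

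Col11a2 lay at 8.51, 9.92 and 13.6 CPM in long photoperiod. It stood at 2.5, 3.86 and 8.99 in pre-hibernation, 1.65, 2.42 and 5.60 in late pre-hibernation, 1.86, 3.76 and 7.59 in interbout euthermia and 2.95, 4.08 and 5.29 in torpor. Only pre-hibernation 5, at 8.99 CPM and 1 of the 3 libraries rich in ribosomal RNA, overlapped long photoperiod among these. The fall was 3.51-fold in late pre-hibernation (log2 -1.81, edgeR adjusted p = 0.0022) and 2.61-fold in torpor (log2 -1.39, edgeR adjusted p = 0.0121). In pre-hibernation and interbout euthermia it missed the threshold with refractory 4 in the fit (adjusted p = 0.0551 and 0.0732, edgeR) and passed without it (0.00898 and 0.0138). The refractory libraries other than number 4 lay at 2.58 to 4.56 CPM, all below long photoperiod, and number 4 at 16.1, above it. Without it the refractory group was lower by log2 -1.63 (edgeR adjusted p = 0.0141). Of 8 astrocyte markers, Ntsr2 and Gpr37l1 fell in all 4 groups from pre-hibernation to torpor, and no other was called there. The median log2 change of the 8 was -0.46, -0.45, -0.16 and 0.01 in these groups. The sum of the 8 was 4449 to 5601 CPM in long photoperiod, 3059 to 3909 in pre-hibernation, 2961 to 4914 in late pre-hibernation, 3374 to 5296 in interbout euthermia and 3932 to 5587 in torpor, with none at 0. Their part in the falls of the collagen IX and XI chains was not tested.

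Col5a3, a chain of collagen V, was lowest in late pre-hibernation. It lay at 48.9, 54.5 and 66.7 CPM in long photoperiod, 35.6, 41.7 and 49 in pre-hibernation, 28.8, 38.8 and 39.4 in late pre-hibernation, 35.2, 45.3 and 53.4 in interbout euthermia, 41, 52.5 and 65.7 in torpor, and 42.8, 57.9 and 74.7 in refractory animals. The late pre-hibernation libraries did not overlap long photoperiod, and the fall was 1.56-fold (log2 -0.65 ± 0.13, edgeR adjusted p = 0.0017). In pre-hibernation the change was log2 -0.43, which edgeR did not call with refractory 4 (adjusted p = 0.0738) and did without it (0.0319). With refractory 4 kept, it was also called without pre-hibernation 1 (edgeR adjusted p = 0.0485). Leaving out any other library of the 2 groups did not give a call (edgeR adjusted p up to 0.199, without long photoperiod 4). In torpor it was log2 -0.10 (95% interval -0.36 to 0.15). Other fibrillar chains of the same families, Col11a1, Col5a1, Col5a2 and Col2a1, were not called in any comparison. The fibrillar genes as a class had a median log2 change of 0.37 in late pre-hibernation. Of the 11, 0 were called higher and 2 lower, beside 2.25% and 1.33% of all genes. The 2 are Col5a3 and Col11a2, already described.

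**Figure D3:**
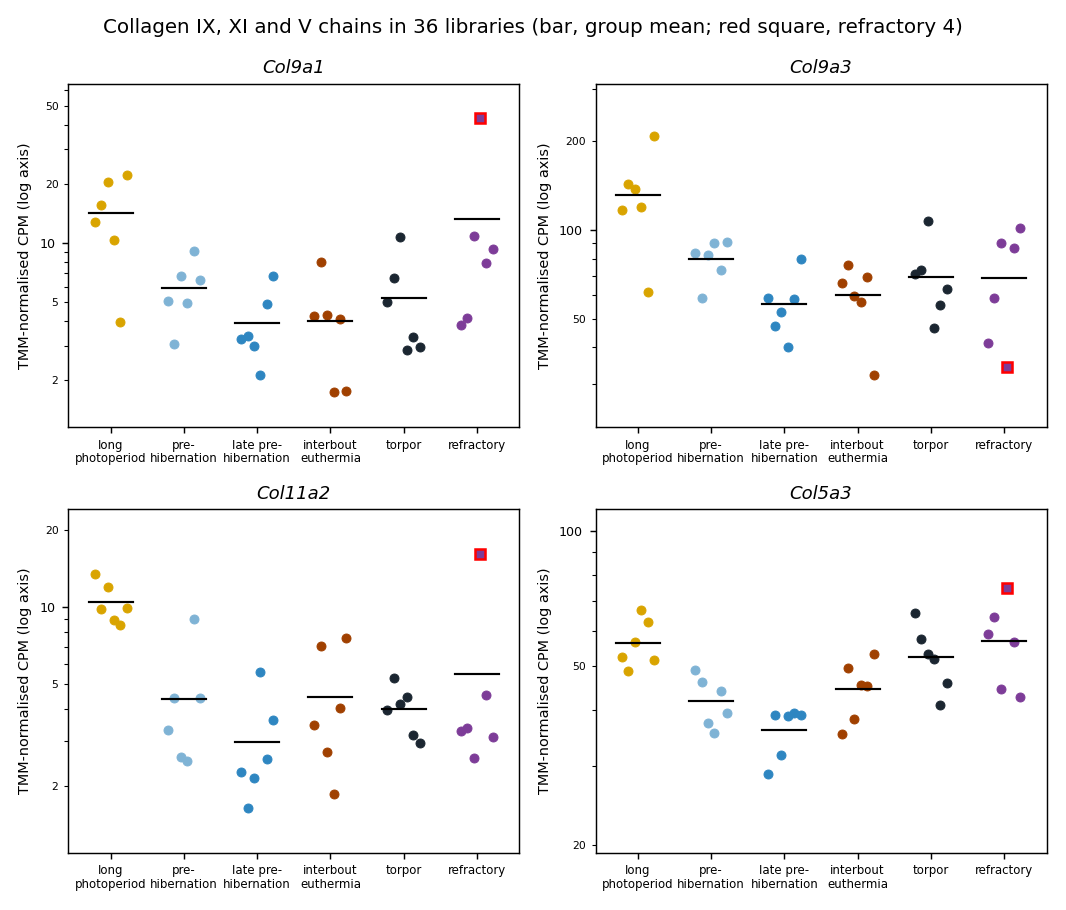
TMM-normalised CPM (log axis) of Col9a1, Col9a3, Col11a2 and Col5a3 in 36 libraries by group; bars are arithmetic group means and the red-edged square is refractory 4. Most long photoperiod libraries lie above the other groups for Col9a3 (61.6 to 209) and Col11a2 (8.51 to 13.6), and refractory 4 stands high for Col9a1 (43.2) and Col11a2 (16.1).

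Itga7 and Itga3 rose in torpor, while their beta partner Itgb1 did not pass the test. Itga7 pairs with the product of Itgb1 as a laminin receptor. It lay at 13.6, 16.7 and 18.1 CPM in long photoperiod, 16.7, 20.3 and 25.6 in pre-hibernation, 19.0, 22.5 and 25.1 in late pre-hibernation, 19.6, 25.8 and 32.0 in interbout euthermia, and 24.5, 33.2 and 38.3 in torpor. The late pre-hibernation, interbout and torpor libraries were all above every long photoperiod library. In torpor 7 of 60 genes were called, 4 higher and 3 lower (9.05% of all genes, 4.32% higher and 4.73% lower), and Itga7 had the smallest p of them, 1.93-fold higher (log2 0.95 ± 0.14, edgeR adjusted p = 1.89e-05). In interbout euthermia 4 of 60 were called, 2 in each direction (1.85% of all genes, 1.21% higher and 0.642% lower), and Itga7 was 1.54-fold higher (log2 0.62, edgeR adjusted p = 0.0125). In late pre-hibernation edgeR did not call its change of log2 0.45 with refractory 4 (adjusted p = 0.0748) and did without it (0.0268). Torpor against interbout euthermia gave log2 0.33 (95% interval 0.05 to 0.60, edgeR adjusted p = 0.231). Refractory animals lay at 15.4, 20.3 and 31.2 CPM, and their change of log2 0.35 was not called (edgeR adjusted p = 0.27).

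Itga3, another alpha subunit of laminin receptors, was tight in long photoperiod at 13.5, 13.9 and 15.1 CPM. It lay at 17.4, 20.6 and 25.3 in late pre-hibernation and 17.4, 20.2 and 29.1 in torpor, both without overlap. The rises were 1.5-fold (log2 0.59, edgeR adjusted p = 0.0421) and 1.57-fold (log2 0.65, edgeR adjusted p = 0.0104). The late pre-hibernation call was lost in 10 of 12 fits without a library, among them all 6 long photoperiod libraries and late pre-hibernation 1, 3, 4 and 5 (adjusted p up to 0.135, without late pre-hibernation 1). Interbout euthermia spread from 11.9 to 31.6 CPM, with a change of log2 0.58 that was not called (edgeR adjusted p = 0.0714). Itga6, the third laminin-binding subunit, went down in torpor, from 9.91, 14.3 and 16.4 CPM to 7.34, 9.01 and 13.5. That fall of log2 -0.54 was not called by edgeR with refractory 4 (adjusted p = 0.0764) and was called without it (0.04).

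Itgb1 held 83.1, 88.6 and 104 CPM in long photoperiod and 84.9, 99.7 and 123 in torpor, a difference of log2 0.16 (95% interval -0.05 to 0.36). None of the 6 beta subunits was called in any comparison. With all libraries 0% to 9.05% of all genes were called in these comparisons, so for 6 genes this count lies near the background. Itgb5 spanned 98.3 to 230 CPM over all libraries, and Itgb8 and Itgb4 also had group means between 93.8 and 118 CPM. Itgb2 and Itgam, which form a receptor of microglia and leukocytes, and Itgb7 were not called. Pre-hibernation 2 held the highest Itgb2 level at 38 CPM. The alpha subunits Itgav, Itga5, Itga1, Itga9, Itga4 and Itga2 were not called either. Exons of Itga4 share 1251 bp (20.7% of its exon length) with the gene Cerkl on the other strand, and the counts do not use strand, so its reads cannot be separated there.

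**Figure D4:**
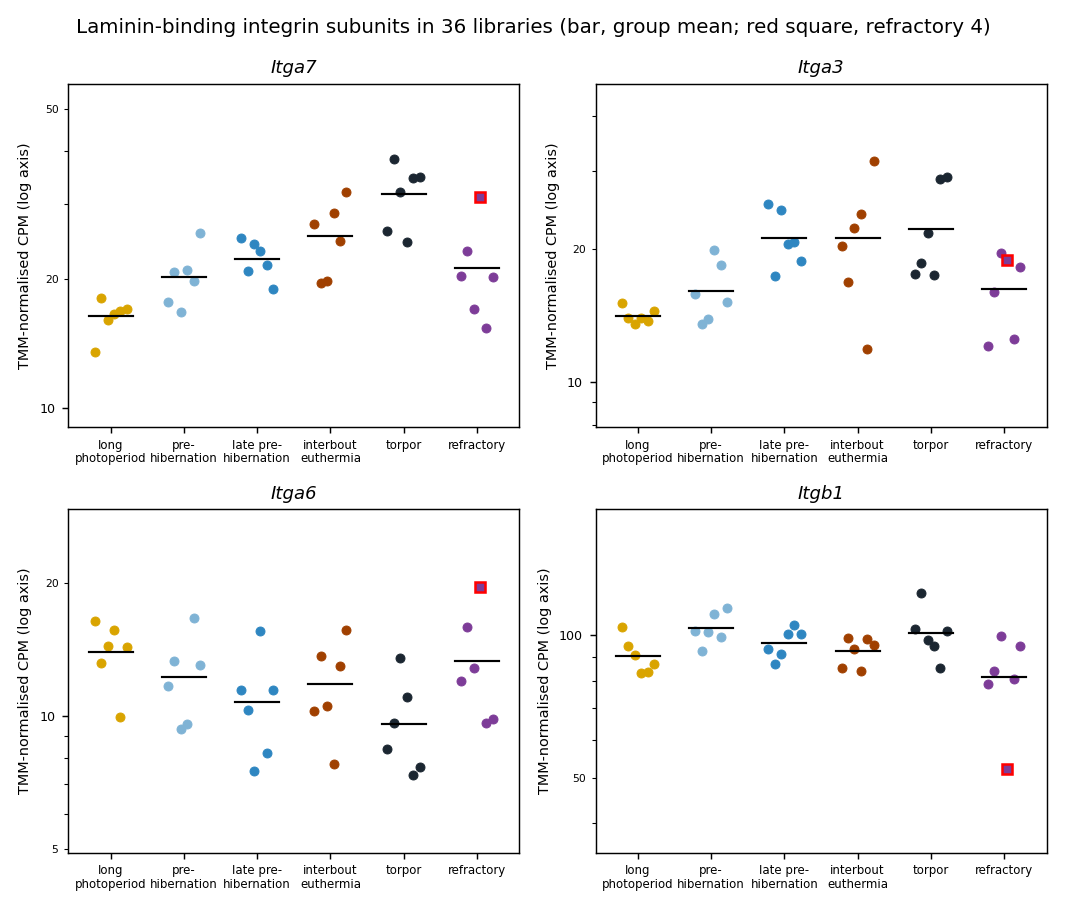
TMM-normalised CPM (log axis) of the laminin-binding subunits Itga7, Itga3 and Itga6 and their partner Itgb1 in 36 libraries by group; bars are arithmetic group means and the red-edged square is refractory 4. Itga7 is highest in torpor (24.5 to 38.3, against 13.6 to 18.1 in long photoperiod), and the Itgb1 groups overlap.

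The type IV collagens form the basement membrane network. With all libraries none of the 6 was called in the 9 pairwise comparisons, where 0% to 9.05% of all genes were called, so for 6 genes this count lies near the background. Col4a1 and Col4a2, the chains of the common vascular network, lie head to head in the genome with overlapping annotated spans. Col4a1 lay at 6.83, 8.17 and 11.4 CPM in long photoperiod and 3.80, 8.29 and 11 in torpor. Col4a2 lay at 6.70, 10.7 and 13.9 CPM and 4.61, 8.11 and 12.8, and the groups overlap for both genes. Col4a5, a chain of a less common network, lay at 2.17, 2.72 and 3.74 CPM in long photoperiod and at 3.89, 6.17 and 7.19 in late pre-hibernation, without overlap. Its change of log2 1.06 was not called by edgeR with refractory 4 (adjusted p = 0.112) and was called without it (0.0151). The same held for that of interbout euthermia (0.99, edgeR adjusted p = 0.197 with it, 0.0408 without). Its head-to-head neighbour Col4a6, whose start lies 1346 bp away, was not called and lay at 3.52 to 7.70 CPM in long photoperiod and 4.36 to 6.84 in late pre-hibernation. Col4a3 and Col4a4, set 261 bp apart in the same way, were both at their highest in refractory 4 (15.4 and 24.7 CPM).

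None of the 9 laminins was called in a comparison with long photoperiod, where 0.329% to 9.05% of all genes were, and for 9 genes this too lies near the background. Lamb2, the most abundant, lay at 115, 147 and 179 CPM in long photoperiod, 164, 198 and 240 in pre-hibernation, 127, 207 and 215 in late pre-hibernation, 149, 190 and 256 in interbout euthermia, 130, 191 and 238 in torpor and 95.3, 156 and 167 in refractory animals. It passed the test over 6 groups with an edgeR adjusted p of 0.0464, which rose above the threshold in 26 of 36 fits without a library (up to 0.0907 without long photoperiod 5, and 0.0602 without refractory 4). Its pairwise changes in the 4 groups before the refractory stage were log2 0.39 to 0.46 with edgeR adjusted p of 0.119 to 0.192. Lama5, the alpha chain of mature vascular laminin, had 22.5, 29.4 and 30.9 CPM in long photoperiod and 31.1, 39.3 and 42.4 in late pre-hibernation. These did not overlap, and the change of log2 0.44 (95% interval -0.02 to 0.89) was not called. Lamc1, Lama4, Lamb1, Lama3 and Lama1 were not called in any comparison. The summed laminin level was 217 ± 15.0 CPM in long photoperiod and 280 ± 28.8, 273 ± 32.6, 287 ± 60.4 and 269 ± 46.3 in the next 4 groups (SD, n = 6), and Lamb2 makes up most of it.

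Among the remaining collagens, Col16a1 and Col8a2 differed over the 6 groups. Col16a1 lay at 58.7, 85.2 and 121 CPM in long photoperiod and 102, 126 and 155 in pre-hibernation, and was lowest in refractory animals at 43.4, 72.3 and 113. Its 6-group adjusted p was 0.0175 (edgeR) and 0.00448 without refractory 4. Col8a2, a network collagen of vessel walls and endothelia, lay at 14.4, 24.3 and 28.9 CPM in long photoperiod and 30.7, 37.6 and 47.7 in pre-hibernation without overlap (log2 0.70, edgeR adjusted p = 0.158). In late pre-hibernation it lay at 19.0, 41.7 and 57.4 CPM, a change of log2 0.82. This was not called by edgeR with refractory 4 (adjusted p = 0.0536) and was called without it (0.0433). With refractory 4 kept, it was also called without late pre-hibernation 4 (edgeR adjusted p = 0.0131). Leaving out any other library of the 2 groups did not give a call (edgeR adjusted p up to 0.177, without late pre-hibernation 6). Col27a1, a fibrillar chain, stood at 0.629, 1.27 and 2.43 CPM in long photoperiod, and at 1.55, 2.60 and 15.1 in pre-hibernation and 2.41, 3.73 and 5.83 in torpor. Without refractory 4 both rises were called (log2 1.67, adjusted p = 0.0411, and log2 1.49, adjusted p = 0.032), while with it neither was (0.244 and 0.171), all by edgeR. The 15.1 CPM belonged to pre-hibernation 5, a library rich in ribosomal RNA. Without that library, and with refractory 4 kept, the pre-hibernation change was log2 0.78 (edgeR adjusted p = 0.693). With all 3 libraries rich in ribosomal RNA left out, the pre-hibernation rise was not called either (edgeR adjusted p = 0.164). Col25a1, Col17a1, Col18a1, Col12a1, Col7a1, Col15a1, Col8a1, Col20a1 and Col1a2 were not called in any comparison with or without refractory 4.

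Without refractory 4 the numbers called against long photoperiod rose to 4 in pre-hibernation (4.1% of all genes), 11 in late pre-hibernation (5.67%), 6 in interbout euthermia (3.46%) and 9 in torpor (14.1%). The 11 were 6 higher and 5 lower genes (3.4% and 2.27% of all genes), and the 9 were 5 higher and 4 lower (6.36% and 7.7%). With long photoperiod 1 to 3 as the only controls, and all other libraries kept, 0, 4, 2 and 4 genes were called in these groups, where 0.573%, 1.43%, 0.541% and 4.44% of all genes were. With 4 to 6 it was 0, 3, 0 and 2, beside 0.588%, 1.2%, 0.297% and 3.19% of all genes. Col6a2 in late pre-hibernation and torpor, Col9a3 in late pre-hibernation and Itga7 in torpor were called with either set. Without refractory 4, in torpor the share of the 60 genes called, 15%, was close to that of all genes. The median log2 change of the 60 genes lay between 0.02 and 0.18 in these 4 comparisons with all libraries, beside -0.00 to 0.01 over all genes.

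The steps between neighbouring stages called none of the 60 genes in edgeR. From pre-hibernation to late pre-hibernation no gene at all was called (0% of all genes). Itgb2, Itga3, Itgb8 and Col9a3, 4 members, had an unadjusted p under 0.05, and DESeq2 and limma voom called 0. From late pre-hibernation to interbout euthermia 0% of all genes were called, 4 members had an unadjusted p under 0.05 (Itgb4, Col5a3, Itgb8 and Itgam), and DESeq2 called 0 and limma voom 1. Entry from interbout euthermia into torpor called 4.06% of all genes and 0 members, with Itga7 the only 1 at an unadjusted p under 0.05, DESeq2 at 0 and limma voom at 2. Without refractory 4 the 3 steps still called 0 of the 60 genes, with 4 at an unadjusted p under 0.05 in each, where 0%, 0% and 7.35% of all genes were called. Differences among the 60 genes in the step into torpor, with all libraries, ran from log2 -0.81 to 0.92.

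In the refractory group the result depended on 1 library. Against long photoperiod edgeR called 0 of 60 genes (0.329% of all genes), 22 had an unadjusted p under 0.05 (13% of all genes did), and DESeq2 and limma voom called 3 each (1.75% and 1.03% of all genes). The median log2 change of the 60 was 0.34 with all libraries, beside 0.03 over all genes, and -0.02 without refractory 4. Without it 2 genes were called, Col11a2 and Col6a3, both lower (0.228% of all genes were called and 0.206% were lower), and 7 had an unadjusted p under 0.05 (6.21% of all genes). Leaving out refractory 1, 2, 3, 5 or 6 instead gave 4 or 5 calls, beside 1.92% to 2.28% of all genes, and leaving out long photoperiod 5 gave 1 (0.596%).

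Against interbout euthermia 5 genes were higher in refractory animals (3.5% of all genes were called and 2.04% were higher), namely Col1a1, Col22a1, Lama2, Col24a1 and Col14a1. Col24a1 reached the level threshold of the set only through refractory 4, so its place among the 5 follows from how the genes were chosen. Lama2, the alpha chain of muscle, nerve and vessel laminin, stood at 37.3 CPM in refractory 4 and at 1.46 to 3.73 in the other 5, against 1.04, 1.82 and 3.20 in interbout euthermia. Its change was log2 1.90 with refractory 4 (edgeR adjusted p = 0.0409) and 0.31 without it (0.644). Col24a1 stood at 27.1 CPM against 0.0396 to 0.238 in the other 5 refractory libraries, and the sign of its change turned from log2 4.30 (edgeR adjusted p = 0.0437) to -0.50 (0.819). For Col14a1 the values were 20.6 CPM against 0.172 to 0.710, with log2 2.84 (0.0497) and 0.06 (0.962). Col1a1 stood at 13.7 CPM in refractory 4, but refractory 3 was also high at 7.34, and the change was log2 2.68 (edgeR adjusted p = 0.0327) with and 2.01 (0.113) without refractory 4.

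Col22a1, a collagen of tissue junctions, was the exception in that its groups did not overlap: 24.3, 30.5 and 34.8 CPM in interbout euthermia and 34.9, 44.8 and 61.0 in refractory animals. The rise was 1.52-fold (log2 0.61 ± 0.17, edgeR adjusted p = 0.0369) and was not called without refractory 4 (log2 0.53, adjusted p = 0.0954). It was lost in 7 of 12 fits without a library: interbout euthermia 1, 2, 3 or 4, or refractory 2, 4 or 5. The other 4 calls were each lost in 6 of 12 fits, including those without interbout euthermia 2, 3, 4 or 5 and without refractory 4. The count of 5 became 3, 1, 0 and 2 without interbout euthermia 2, 3, 4 and 5, where 1.74%, 1.39%, 1.22% and 2.54% of all genes were called. It became 10, 9, 9 and 13 without refractory 1, 2, 5 and 6, beside 3.5%, 3.69%, 4.2% and 5.55%. Without refractory 4 a single gene was called, Col16a1, which was lower in refractory animals by log2 -0.72 (edgeR adjusted p = 0.0364), where 1.27% of all genes were called and 0.861% were lower.

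**Figure D5:**
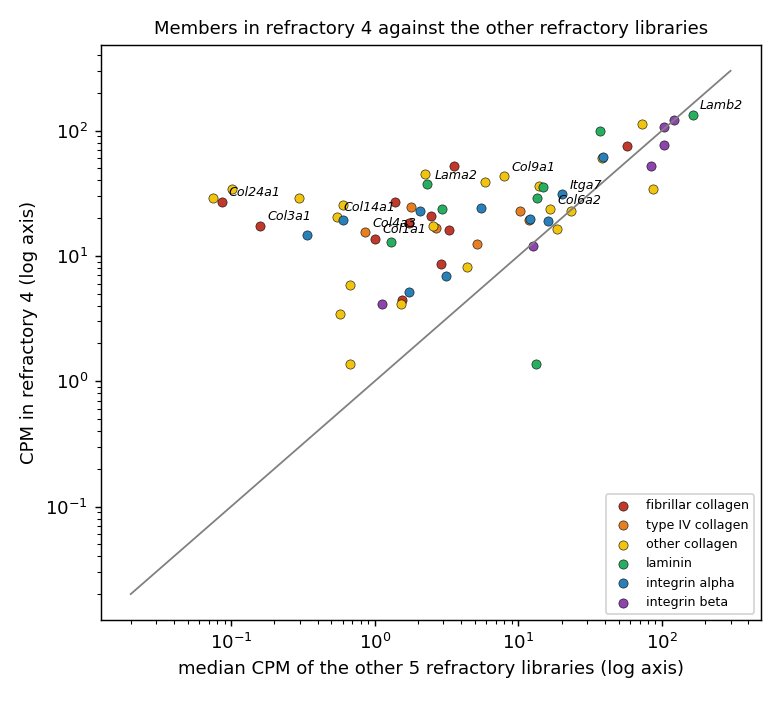
Level of 62 of the genes in refractory 4 (y axis) against the median of the other 5 refractory libraries (x axis), both in TMM-normalised CPM on log axes, coloured by class; the line marks equal levels. Refractory 4 is above the line for 54 of 62 genes, and the share of all genes above such a line is not given. Among the 54, Itga2, Col19a1, Col6a6, Col6a5, Col3a1 and Col24a1 reached the level threshold of the set only through refractory 4. Their place above the line therefore follows from how the genes were chosen. The genes farthest from the line, Col6a5, Col19a1 and Col24a1, are of this kind.

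Genes that work with these proteins were counted from 5 lists, beside 2.29%, 3.58%, 1.85% and 9.05% of all genes called against long photoperiod from pre-hibernation to torpor, and 4.1%, 5.67%, 3.46% and 14.1% without refractory 4. Of 32 matrix and basement membrane partners, 32 were tested, and the numbers called higher and lower against long photoperiod were 1 and 0 in pre-hibernation, 1 and 1 in late pre-hibernation, 1 and 1 in interbout euthermia and 1 and 2 in torpor. Without refractory 4 they were 1 and 1, 2 and 2, 2 and 2, and 1 and 2. Agrn, a heparan sulfate proteoglycan of basement membranes, rose in pre-hibernation (log2 0.63, edgeR adjusted p = 0.0394), late pre-hibernation (0.81, adjusted p = 0.00328) and torpor (0.53, adjusted p = 0.0435). It lay at 48.6, 56.6 and 61.5 CPM in long photoperiod and 71.9, 93.9 and 120 in late pre-hibernation, without overlap. Ntn4, a laminin-related netrin, rose in interbout euthermia (log2 0.92, edgeR adjusted p = 0.0389), and Fbln1, a fibulin of elastic and basement membrane matrix, fell in torpor (log2 -0.67, adjusted p = 0.0216). Thbs4, a thrombospondin, fell in late pre-hibernation, interbout euthermia and torpor, with 1 long photoperiod library at 169 CPM beside a group median of 6.19.

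Of 31 genes of collagen processing, 27 were tested. None was called in pre-hibernation or interbout euthermia; without refractory 4 the counts higher and lower from pre-hibernation to torpor were 1 and 0, 2 and 1, 1 and 0, and 2 and 3. Late pre-hibernation held 2 higher genes, Fkbp10, a chaperone of procollagen (log2 1.03, edgeR adjusted p = 0.00868), and P3h4 (log2 0.49, adjusted p = 0.0336). Torpor held 1 higher gene, P3h1 (log2 0.62, adjusted p = 0.0364), and 3 lower. The lower ones were P4ha2 (log2 -0.61, adjusted p = 0.00955) and Loxl1 (-1.0, adjusted p = 0.048), which modify and crosslink collagen, and Plod2, which hydroxylates collagen lysines for crosslinks. Plod2 lay at 56.9, 69.7 and 81.0 CPM in long photoperiod, 48.0, 59.1 and 83.3 in interbout euthermia and 36.3, 45.9 and 52.6 in torpor. It was lower in torpor than in long photoperiod (log2 -0.61, adjusted p = 0.00111) and than in interbout euthermia (-0.44, adjusted p = 0.0364), both by edgeR.

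The 31 integrin adhesion genes were all tested. From pre-hibernation to torpor 1, 3, 1 and 2 were higher and 0, 0, 0 and 1 lower, and without refractory 4 it was 3, 3, 1 and 4 higher and 0, 0, 0 and 1 lower. Tns1, a tensin that links integrin tails to actin, was higher in 4 groups, with log2 changes of 0.90, 0.91, 0.78 and 1.18 from pre-hibernation to torpor (edgeR adjusted p = 0.000272, 0.000148, 0.00245 and 1.35e-06). Its long photoperiod libraries held 46.1, 57.5 and 65.2 CPM and its torpor libraries 91.2, 113 and 196. Bcar1, an adaptor of focal adhesions, rose in late pre-hibernation (log2 0.71, edgeR adjusted p = 0.0297) and torpor (1.00, adjusted p = 0.000628). Lims1, a partner of the integrin-linked kinase, fell in torpor against long photoperiod (log2 -0.42, adjusted p = 0.00967) and against interbout euthermia (-0.59, adjusted p = 0.000648). Ptk2b, a kinase of focal adhesions, rose in late pre-hibernation (log2 0.92, adjusted p = 0.0184).

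Of 33 matrix proteases and inhibitors 31 were tested, and Plau, the urokinase plasminogen activator, rose in all 4 groups before the refractory stage. It held 0.976, 2.85 and 4.62 CPM in long photoperiod and 8.86, 15.2 and 18 in late pre-hibernation (log2 2.30, edgeR adjusted p = 6.64e-05), and 6.12, 8.06 and 14.3 in pre-hibernation (1.66, adjusted p = 0.00507). The list held 2 higher genes in pre-hibernation, 1 higher and 1 lower in late pre-hibernation, 1 higher in interbout euthermia and 2 of each in torpor. Without refractory 4 the counts higher and lower were 2 and 2, 1 and 3, 1 and 3, and 2 and 4. The others were Ctsk, higher in pre-hibernation (log2 2.28, edgeR adjusted p = 0.0329), Adamts15, lower in late pre-hibernation (-1.57, adjusted p = 0.011) and torpor (-1.66, adjusted p = 0.00366), and, in torpor, Adam9 (0.39, adjusted p = 0.0158) and Reck (-0.88, adjusted p = 0.0159). Of 21 TGF-beta genes 16 were tested, and the counts higher and lower were 1 and 1, 1 and 2, 0 and 1, and 1 and 1, with 1 and 2 in torpor as the only change without refractory 4. Tgfb3 was lower in pre-hibernation (log2 -1.27, edgeR adjusted p = 0.00169) and late pre-hibernation (-1.15, adjusted p = 0.00298). Ccn2, a matricellular protein induced by TGF-beta, was higher in the same 2 groups (log2 2.71, adjusted p = 0.00866, and 2.55, adjusted p = 0.00897). Tgfbi was lower in late pre-hibernation (log2 -1.37, adjusted p = 0.0074) and interbout euthermia (-1.45, adjusted p = 0.00947), and Bambi in torpor (-0.79, adjusted p = 0.0251). Ccn1, related to Ccn2, was higher in torpor than in long photoperiod (log2 1.28, adjusted p = 4.05e-05) and than in interbout euthermia (1.32, adjusted p = 5.05e-05). Against interbout euthermia, where 3.5% of all genes were called, the refractory group held 5 calls in the 5 lists. Fbn2 and Adamts20 were higher, and Ntn4, Fkbp10 and Timp1 lower. Without refractory 4 only Timp1 of these was still called (log2 -0.67, edgeR adjusted p = 0.0325), beside 1.27% of all genes.

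Markers of the cells that could carry these genes were measured in the same libraries. The 9 tanycyte markers tested summed to 1104 to 2942 CPM and none was at 0 in any library; the 7 ependymal markers summed to 1264 to 2998 and the 8 astrocyte markers to 2293 to 5601. The captured strip thus also held counts on markers listed for ependymal cells, astrocytes, neurons, vessels, microglia and, in every library, the pituitary. Which cells these counts came from was not tested. In bulk RNA fewer cells of a type and less RNA per cell cannot be told apart. Fibroblast and meningeal markers, 10 measured, summed to 148 to 200 CPM in long photoperiod, 104 to 160 in late pre-hibernation and 101 to 166 in torpor. Of the 9 tested only Lum was called in late pre-hibernation, and 5 of the 10 (Lum, Slc6a13, Aldh1a2, Slc22a6 and Pcolce) were at 0 in at least 1 library. Mural cell markers, all 12 measured, summed to 91.3 to 116 CPM in long photoperiod and 111 to 147 in late pre-hibernation, where Tagln and Notch3 rose. Pituitary markers, 9 measured and 8 tested, ran from 167 to 2404 CPM in long photoperiod. They ran from 82.4 to 235 in pre-hibernation, where Gh1 and Pou1f1 fell, and 76.0 to 618 in late pre-hibernation, where Lhb fell. The range was 102 to 211 in interbout euthermia and 91.4 to 194 in torpor, with 5 of the 8 lower than in long photoperiod in each. In refractory animals it was 108 to 1833, and 5 of the 8 were higher than in interbout euthermia, the comparison in which 5 of the 60 genes were higher. Refractory 4, on which calls among those 5 genes depended, held 326 CPM of pituitary markers, beside a group median of 304. Gh1, Fshb, Pou1f1 and Pitx1 were at 0 in at least 1 library. The part of these cell types in the changes of Col6a2, the collagen IX and XI chains, the integrins and the genes higher in refractory animals was not tested.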

How the data were processed

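The deposited tables, 1 per library, hold whole-number read counts per gene, made by the authors with featureCounts 2.0.1 per the file headers, over the exons of the golden hamster assembly BCM_Maur_2.0 and without use of strand. No source used here names the aligner. Library depth is the sum of the counts, 5.16 to 28.54 M (M for 1e6), and counting error is largest for the low genes of the smallest library, refractory 4. Counts were tested with edgeR 4.0.16 (R 4.3.3): filterByExpr, TMM factors, and a robust quasi-likelihood fit of 6 group means over 36 libraries, with Benjamini-Hochberg adjustment over 17926 genes. The 6 groups were compared together and in 9 contrasts. CPM values are TMM-normalised, except in the rule that chose the genes. Error terms are SE of log2 fold changes, intervals are 95% before adjustment, and p-values set group differences against the spread between these libraries. The contrast fit was tested on simulated data.

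The gene set and all lists were chosen with earlier results of these data known. The genes of the set are named, except 1 that is not reported here. Full values were given for genes called in a test, for the 2 highest of each class per kilobase, and for called genes of the 5 lists, at most 4 per list and comparison. Alternatives were the fit without refractory 4 or without the 3 libraries rich in ribosomal RNA, RLE factors, other filters, a replicate block, the 2 groups alone, part of the controls, each library left out, limma 3.58.1 voom and DESeq2 1.42.0. Col23a1 was not analysed here, and no sequences were used here. Python 3.11.15, pandas 2.3.3 and matplotlib 3.10.9 made the summaries and figures.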

Additional observations from a re-analysis of the deposited data

Results flagged for a closer look

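In 108 groups of 6 libraries (18 genes in 6 groups), 16 held a library whose gap to the next was large for the range of its group by Dixon's test, where chance gives about 1 in 20 groups. The 18 genes were those called in a test, some of them through refractory 4, so this count is not comparable with that rate. Of these, 8 lay in refractory 4. There Lama2 stood at 37.3 CPM (others 1.46 to 3.73), Col9a1 at 43.2 (3.84 to 10.9), Col11a2 at 16.1 (2.58 to 4.56) and Col6a1 at 4.11 (1.2 to 2.07). Col24a1 stood at 27.1 CPM (0.0396 to 0.238), Col14a1 at 20.6 (0.172 to 0.710), Col3a1 at 17.5 (0.112 to 1.29) and Col4a3 at 15.4 (0.459 to 1.23).

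Pre-hibernation 5, which also had more ribosomal RNA than most libraries, stood apart for Col11a2 at 8.99 CPM (2.5 to 4.42), Col1a1 at 3.15 (0.591 to 1.21) and Col4a3 at 2.34 (0.476 to 0.923). Interbout euthermia 6, the third such library, held Col3a1 at 0.799 CPM (0.0750 to 0.308). Late pre-hibernation 4 was low for Lamb2 at 127 CPM (192 to 215) and high for Lama2 at 4.87 (1.09 to 2.5). Col3a1 stood at 1.51 CPM in pre-hibernation 1 (0 to 0.303), and Col24a1 at 0.657 in torpor 4 (0 to 0.161). The causes were not tested.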

How the results depend on the processing

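The counts of the 60 genes called in the 6-group test and the comparisons with long photoperiod and with interbout euthermia moved with these choices. Each count is followed by the share of all genes called under the same setting. With all libraries in edgeR, the 6-group count includes Col24a1 and Col3a1, which are in the set only through refractory 4. The count of refractory animals against interbout euthermia includes Col24a1. In the 6-group test 16 were called (14.6%), 10 with the replicate block (10.7%) and 27 with limma voom (43.6%). In pre-hibernation against long photoperiod the count was 1 (2.29%), and became 4 without refractory 4 (4.1%), 6 without the 3 libraries rich in ribosomal RNA (6.37%), 2 with no filter beyond 1 count (0.837%), 7 with the 2 groups alone (4.2%), 12 with limma voom (11.8%), 3 with DESeq2 (3.55%), and 0 with controls 1 to 3 (0.573%) or 4 to 6 (0.588%). In late pre-hibernation it was 6 (3.58%), and 11 without refractory 4 (5.67%), 13 without the 3 libraries (9.76%), 13 with the 2 groups alone (8.01%), 19 with limma voom (17.3%), 10 with DESeq2 (4.89%) and 3 with controls 4 to 6 (1.2%). In interbout euthermia it was 4 (1.85%), and 7 without the 3 libraries (4.73%) and with the 2 groups alone (2.59%), 10 with limma voom (8.75%), 2 with controls 1 to 3 (0.541%) and 0 with 4 to 6 (0.297%). Without refractory 4 it was 6 (3.46%), as with DESeq2 (3.37%). In torpor it was 7 (9.05%), and 12 with limma voom (24%), 4 with controls 1 to 3 (4.44%) and 2 with 4 to 6 (3.19%).

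In refractory animals against long photoperiod it was 0 (0.329%), and 2 without refractory 4 (0.228%), without the 3 libraries (0.531%) and with RLE factors (0.92%), and 3 with limma voom (1.03%) and DESeq2 (1.75%). Against interbout euthermia it was 5 (3.5%), and 1 without refractory 4 (1.27%) or the 3 libraries (3.02%), 3 at a CPM of at least 1 in 6 libraries (2.44%), 10 with no filter beyond 1 count (6.45%), 0 with the replicate block (1.22%) or the 2 groups alone (0.0297%), 2 with limma voom (6.67%) and 9 with DESeq2 (5.42%). From late pre-hibernation to interbout euthermia limma voom called 1 (3.15%), and from interbout euthermia to torpor it called 2 (10.8%), with 1 without the 3 libraries (8.94%). The causes of these shifts were not tested. The fit over 36 libraries shares 1 estimate of spread among the 6 groups, as do those with some libraries left out. The fits of the 2 groups alone use only the spread within those 2 groups.

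With each library left out in turn, the counts ran from 1 to 2 in pre-hibernation, 0 to 5 in refractory animals against long photoperiod and 0 to 13 against interbout euthermia. Replicate numbers did not pair the libraries: 90 same-numbered pairs had a mean correlation of -0.00326 and 450 other pairs 0.00473, so the block shares only a number. Of 1730 values of single genes under an alternative, 1440 kept their direction and side of the threshold, 197 were no longer called, 91 became called and 2 reversed. Both reversals are 1 fit, Col24a1 in refractory animals against interbout euthermia without refractory 4, at log2 -0.50; leaving out the other libraries in turn gave up to 4.73. Low counts limit genes under 1 CPM, and in the library of 5.16 M counts they rest on few reads.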
